A study of Mus musculus with 24 samples.

Results

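Junctional adhesion molecules and polarity genes were read out as 8 genes, F11r, Jam2, Jam3, Esam, Pard3, Pard6g, Prkci and Prkcz, picked by gene symbol from the 22180 genes of the array that have a probe set with a single symbol. Each of the 8 has 1 such probe set, and for other genes with several the brightest on average over the 24 arrays was taken. The arrays hold RNA of cells sorted with magnetic beads and antibodies to the endothelial surface proteins Cd144 (VE-cadherin) and Cd105 (endoglin), after papain dissociation of freshly collected tissue. The study asks how the gene expression of vessel cells differs between normal brain and medulloblastoma, a childhood tumour type of the hindbrain, of the Wnt and the Shh kind. There were 8 arrays of Wnt tumours, from mice with Blbp-Cre and the Ctnnb1 +/Exon3 flox, Trp53 flox/flox and Pik3ca +/flox alleles. A further 8 came from Shh tumours of Ptch+/-, Ink4c-/- mice and 8 from the hindbrain of wild type adult mice, and all animals were of mixed strain background. Blbp is a gene of radial glia and neural progenitors, so the Cre line targets the tumour lineage, whereas the Ptch and Ink4c alleles are written in the genotype without a Cre driver. Age was given only for the hindbrain mice, as adult, so age and tumour cannot be told apart. The arrays of a group are labelled biological replicates.

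F11r (also called JAM-A), Jam2 (JAM-B) and Jam3 (JAM-C) are small immunoglobulin-family adhesion proteins that bind each other across the contact between neighbouring endothelial cells, and Esam is their relative found in endothelium and platelets. Through a short motif at their cytoplasmic ends the junctional adhesion molecules recruit Pard3, a scaffold that holds Pard6 proteins and an atypical protein kinase C, encoded by Prkci or Prkcz. This assembly helps to set the apical and basal sides of a cell and to mature tight junctions, and in brain vessels it is part of how the blood-brain barrier is built and how white blood cells cross it.

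In the promoter table of RefSeq (GRCm38.p6), 4 of the 8 genes were matched to 7 windows of 300 bases, each with 250 bases before and 50 bases after an annotated start. Windows on 1 chromosome were left out of the match, so the lack of a Pard6g window here does not mean that the table holds none. No window of Pard6g, Jam2, Jam3 or Esam was searched for motifs. The windows of F11r, Prkci and Pard3 are printed because the first fell and the second rose in Wnt tumours while the third encodes the scaffold that links the adhesion proteins to the kinase. Capitals mark the GC box GGGCGG or its reverse complement. The F11r window is chr1:171437311-171437610 on the plus strand, the Prkci window chr3:30995521-30995820 on the plus strand and the Pard3 window chr8:127063806-127064105 on the plus strand. Pard3 has a second window that is not printed.
F11r: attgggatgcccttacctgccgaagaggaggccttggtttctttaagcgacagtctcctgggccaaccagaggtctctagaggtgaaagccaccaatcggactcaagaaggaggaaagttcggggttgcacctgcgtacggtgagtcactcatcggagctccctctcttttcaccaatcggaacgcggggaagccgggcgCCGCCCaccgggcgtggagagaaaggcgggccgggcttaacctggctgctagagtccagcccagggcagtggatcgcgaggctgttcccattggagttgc
Prkci: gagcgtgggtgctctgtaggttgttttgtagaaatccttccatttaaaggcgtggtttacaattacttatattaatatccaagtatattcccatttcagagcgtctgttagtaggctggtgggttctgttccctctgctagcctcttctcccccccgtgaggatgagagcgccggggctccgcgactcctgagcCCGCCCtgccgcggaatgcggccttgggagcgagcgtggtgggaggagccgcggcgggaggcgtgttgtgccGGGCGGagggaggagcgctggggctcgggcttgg
Pard3: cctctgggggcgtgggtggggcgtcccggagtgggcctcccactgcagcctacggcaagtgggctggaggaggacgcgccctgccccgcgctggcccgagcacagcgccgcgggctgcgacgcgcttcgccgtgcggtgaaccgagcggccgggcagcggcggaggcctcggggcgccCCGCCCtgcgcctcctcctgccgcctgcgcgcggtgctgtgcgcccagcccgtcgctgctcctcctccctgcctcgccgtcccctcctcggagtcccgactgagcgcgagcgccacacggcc
The F11r window held 1 GC box, the Prkci window 2 and the Pard3 window 1, and 35.6% of the 32817 promoter windows in the table hold at least 1. Both strands were also searched for the ETS motif CCGGAAG, present in 8.86% of all windows, and for the TCF/LEF motif CTTTGA, present in 16%. None of the 7 windows of F11r, Pard3, Prkci and Prkcz held the letters of either motif. GC content was 60.3% for F11r, 59.7% for Prkci and 78.7% for the printed Pard3 window.

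In endothelial cells from Wnt tumours, 3 of the 4 adhesion genes were lower than in adult hindbrain: F11r, Jam2 and Esam fell by 1.29, 1.19 and 0.93 on the log2 scale, while Jam3 rose by 0.96. In cells from Shh tumours, Jam2 fell and F11r, Jam3 and Esam did not pass the test. Of the polarity genes, Prkci, Pard6g and Pard3 rose in Wnt tumours, and in Shh tumours Pard6g rose and Pard3 fell. Expression is given as log2 array signal, so that a difference of 1 corresponds to a change by a factor set by the base of the logarithm, and a gene counts as changed where limma's p, adjusted over all genes by Benjamini and Hochberg, is under 0.05. For Wnt minus hindbrain, 7 of the 8 genes were called, 4 higher and 3 lower, where 45.3% of all genes were called (23.2% higher, 22% lower). For Shh minus hindbrain, 3 of 8 were called, 1 higher and 2 lower, against 37.8% of all genes (18.9% each way). For Wnt minus Shh, all 8 were called, 4 higher and 4 lower, against 35.8% of all genes (18% higher, 17.8% lower). The median log2 fold change of the 8 genes was 0.20, -0.05 and 0.0042 in these comparisons in turn, beside -0.02, -0.02 and -0.0019 over all genes. Groups did not overlap for 4 of the 8 genes in Wnt minus hindbrain, where this held for 20% of all genes, for 2 in Shh minus hindbrain against 12.7%, and for 3 in Wnt minus Shh against 10.1%. The comparisons with hindbrain share the same hindbrain arrays.

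**Figure D1:**
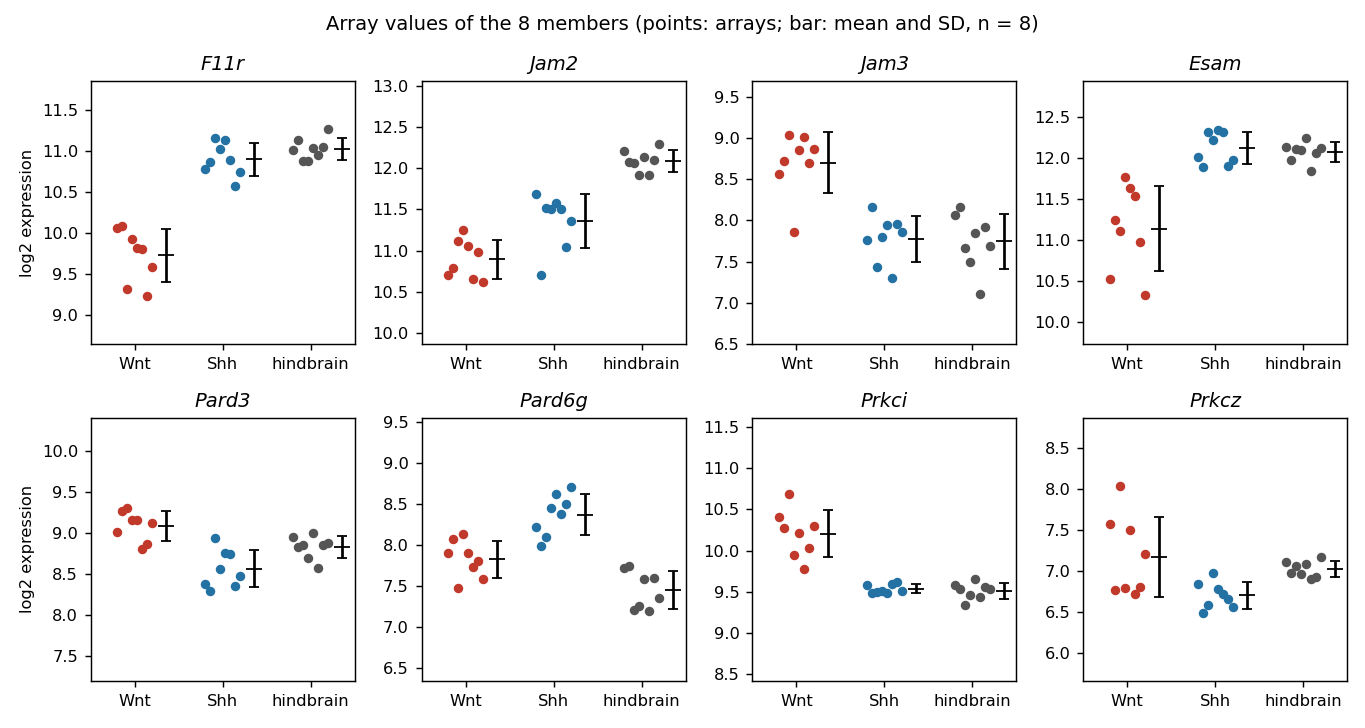
Log2 array signal of the 8 genes (vertical axes) in each array of the Wnt, Shh and hindbrain groups, with 1 point per array and a bar for the group mean ± SD (n = 8). F11r and Esam lie lower and Prkci lies higher in all Wnt arrays than in any array of the other groups, and Jam2 is highest in the hindbrain arrays.

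F11r, a homophilic adhesion protein of tight junctions, was the adhesion gene with the largest difference. Its log2 signal ran from 9.24 to 10.09 (median 9.81) in Wnt tumours, from 10.57 to 11.16 (median 10.87) in Shh tumours and from 10.87 to 11.26 (median 11.02) in hindbrain. Every Wnt array was below every Shh and every hindbrain array, and 4 of the 8 Shh arrays were below all hindbrain arrays. The means were 9.73 ± 0.32, 10.90 ± 0.20 and 11.02 ± 0.13 (SD, n = 8 each) in the Wnt, Shh and hindbrain groups. F11r was thus 2.45-fold lower in Wnt tumours than in hindbrain (log2 fold change -1.29 ± 0.11 SE, adjusted p 9.86e-10), and 3.49% of all genes had a lower value in this comparison. It was 2.24-fold lower in Wnt than in Shh tumours (-1.17 ± 0.11 SE, adjusted p 1.26e-08). Between Shh tumours and hindbrain the difference was -0.13 ± 0.11 (SE, adjusted p 0.407).

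Jam2, which pairs with Jam3 across contacts and binds an integrin of lymphocytes, was the only one of the 4 adhesion genes called in all 3 comparisons. Jam2 ran from 10.62 to 11.25 (median 10.88) in Wnt tumours, from 10.70 to 11.69 (median 11.50) in Shh tumours and from 11.91 to 12.30 (median 12.09) in hindbrain. Arrays of both tumour groups lay below every hindbrain array, while the tumour groups overlapped each other. The group means were 10.90 ± 0.24 in Wnt tumours, 11.36 ± 0.33 in Shh tumours and 12.09 ± 0.13 in hindbrain (SD, n = 8 each). Jam2 fell by 1.19 ± 0.12 in Wnt tumours (SE, adjusted p 9.19e-09) and by 0.73 ± 0.12 in Shh tumours (SE, adjusted p 3.22e-05), each against hindbrain. In Wnt minus Shh the log2 fold change was -0.46 ± 0.12 (SE, adjusted p 0.00343), with 2 of 8 Wnt arrays below all Shh arrays. That difference did not pass with the mean of 15 endothelial markers as a covariate (-0.034, adjusted p 0.929) and had the opposite sign relative to that mean (0.43, adjusted p 0.00637). Relative to that mean the median gene was at 0.89, above Jam2, and 97.9% of all called genes were higher.

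Jam3, the binding partner of Jam2, went the other way in Wnt tumours. Its signal ran from 7.86 to 9.04 (median 8.79) in Wnt tumours, from 7.30 to 8.17 (median 7.83) in Shh tumours and from 7.11 to 8.16 (median 7.77) in hindbrain. Of the 8 Wnt arrays, 7 lay above all arrays of the other groups and the remaining one, array 4, lay among them. Jam3 averaged 8.70 ± 0.38 in Wnt tumours, 7.78 ± 0.28 in Shh tumours and 7.74 ± 0.34 in hindbrain (SD, n = 8 each), a rise of 0.96 ± 0.16 for Wnt minus hindbrain (SE, adjusted p 1.78e-05) and of 0.93 ± 0.16 for Wnt minus Shh (SE, adjusted p 4.71e-05). For Shh minus hindbrain the difference was 0.03 ± 0.16 (SE, adjusted p 0.898).

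Esam, an adhesion protein of endothelial contacts and platelets, ran from 10.32 to 11.77 (median 11.17) in Wnt tumours, from 11.88 to 12.34 (median 12.11) in Shh tumours and from 11.84 to 12.25 (median 12.10) in hindbrain. The highest Wnt array was below the lowest array of each other group, and the Wnt arrays were spread the most. Esam fell by 0.93 ± 0.16 in Wnt tumours against hindbrain (SE, adjusted p 1.98e-05), with means of 11.14 ± 0.52 in Wnt tumours and 12.07 ± 0.12 in hindbrain (SD, n = 8 each). Against Shh tumours, which averaged 12.12 ± 0.20 (SD, n = 8), the fall was 0.98 ± 0.16 (SE, adjusted p 1.74e-05). Shh tumours and hindbrain differed by 0.05 ± 0.16 (SE, adjusted p 0.834).

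**Figure D2:**
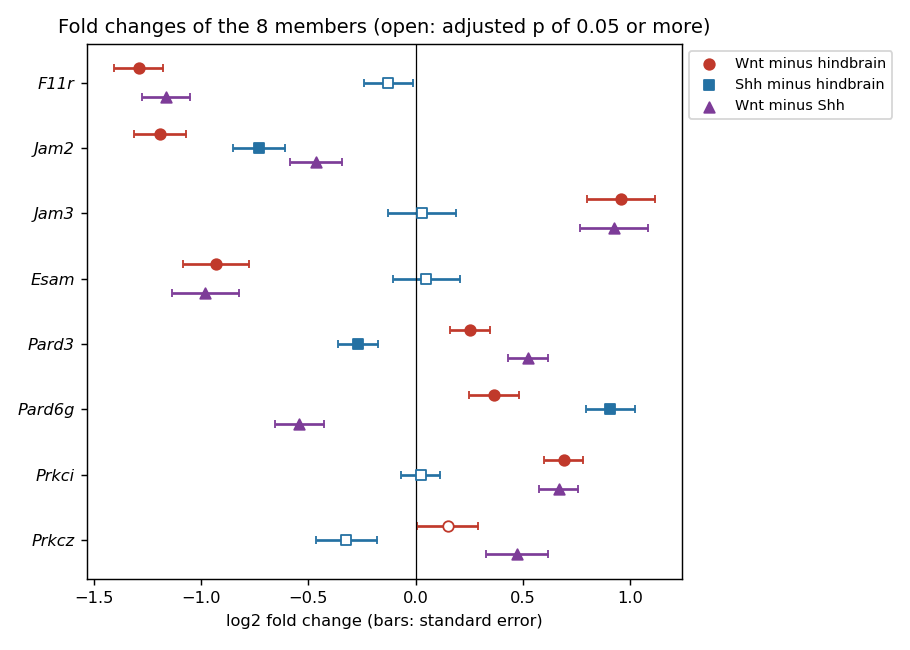
Log2 fold change of each of the 8 genes with its SE in the comparisons of Wnt with hindbrain, Shh with hindbrain and Wnt with Shh, with filled points for genes called at an adjusted p under 0.05. F11r, Jam2 and Esam are negative and Jam3 and Prkci positive in Wnt minus hindbrain, whereas in Shh minus hindbrain Jam2, Pard3 and Pard6g are the genes called.

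Prkci, the atypical protein kinase C iota that phosphorylates polarity proteins, ran from 9.78 to 10.69 (median 10.24) in Wnt tumours, from 9.48 to 9.62 (median 9.51) in Shh tumours and from 9.34 to 9.65 (median 9.54) in hindbrain. All Wnt arrays were above all arrays of the other groups, and the Shh range lay within the hindbrain range. Prkci averaged 10.20 ± 0.29 in Wnt tumours, 9.54 ± 0.054 in Shh tumours and 9.51 ± 0.096 in hindbrain (SD, n = 8 each). The rise was 0.69 ± 0.090 against hindbrain (SE, adjusted p 5.28e-07) and 0.67 ± 0.090 against Shh tumours (SE, adjusted p 1.78e-06). Shh minus hindbrain was 0.02 ± 0.090 (SE, adjusted p 0.861).

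Prkcz encodes the related zeta kinase, and its Wnt arrays fell on both sides of the hindbrain range. In Wnt tumours its values were 7.58, 6.78, 8.04, 6.80, 7.50, 6.72, 6.80 and 7.20 in arrays 1 to 8, in Shh tumours they ran from 6.49 to 6.97 (median 6.69) and in hindbrain from 6.90 to 7.17 (median 7.02). Arrays 1, 3, 5 and 8 of the Wnt group lay above every hindbrain array and the other 4 below every hindbrain array, with a group mean of 7.18 ± 0.49 (SD, n = 8). Prkcz differed by 0.15 ± 0.14 between Wnt tumours and hindbrain (SE, adjusted p 0.436) and by -0.32 ± 0.14 between Shh tumours and hindbrain (SE, adjusted p 0.0807), and it was higher by 0.47 ± 0.14 in Wnt than in Shh tumours (SE, adjusted p 0.0117). Of the Shh arrays, 7 lay below every hindbrain array. The difference between Shh tumours and hindbrain passed the threshold after quantile normalization (-0.42, adjusted p 0.021) and with arrays set to the same gene median (-0.41, adjusted p 0.026). It also passed in limma with these 2 groups fitted alone (adjusted p 0.0017) and without Wnt array 3, which enters the shared spread (adjusted p 0.0258).

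Pard6g, an adaptor that joins the kinase to the Cdc42 GTPase, was the only one of the 8 genes that rose in Shh tumours. It ran from 7.48 to 8.13 (median 7.85) in Wnt tumours, from 7.98 to 8.70 (median 8.41) in Shh tumours and from 7.19 to 7.74 (median 7.47) in hindbrain. All Shh arrays lay above all hindbrain arrays, and 5 of the 8 Wnt arrays did. The rise was 0.91 ± 0.12 in Shh tumours (SE, adjusted p 9.26e-07) and 0.37 ± 0.12 in Wnt tumours (SE, adjusted p 0.0109), and Wnt minus Shh was -0.54 ± 0.12 (SE, adjusted p 0.000534). The Wnt rise did not pass with quantile normalization (0.23, adjusted p 0.112) or with all arrays set to the same gene median (0.25, adjusted p 0.0666).

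Pard3, the scaffold bound by the junctional adhesion molecules, moved in opposite directions in the tumours. It ran from 8.80 to 9.31 (median 9.14) in Wnt tumours, from 8.30 to 8.94 (median 8.52) in Shh tumours and from 8.58 to 9.01 (median 8.85) in hindbrain, and the ranges of all groups overlapped. Pard3 rose by 0.26 ± 0.093 in Wnt tumours (SE, adjusted p 0.0275) and fell by 0.27 ± 0.093 in Shh tumours (SE, adjusted p 0.0252), each against hindbrain, and Wnt minus Shh was 0.52 ± 0.093 (SE, adjusted p 7.27e-05). Both calls against hindbrain were lost when single arrays were left out: the Wnt rise without hindbrain array 4 or 6 or Wnt array 2 or 3 (adjusted p 0.0535 to 0.0633), and the Shh fall without hindbrain array 5 or Shh array 1, 2 or 7 (adjusted p 0.0506 to 0.0588). The Wnt rise also did not pass with quantile normalization (0.19, adjusted p 0.119), with arrays set to the same gene median (0.14, adjusted p 0.245) or with array weights (0.20, adjusted p 0.0576).

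Whether the adhesion genes changed unequally within the same arrays was tested on the log2 difference between pairs of genes. Of 21 tests, for 6 pairs of adhesion genes and for Prkcz minus Prkci in 3 comparisons, 14 had an adjusted p under 0.05 in exact two-sided permutation tests over arrays, whose smallest possible p is 0.000155. Other pairs of genes were not tested, so this count cannot be called particular to these genes. A difference between the probe sets of 2 genes is also not a difference in their abundance. F11r minus Jam3 averaged 1.03 ± 0.58 in Wnt tumours and 3.28 ± 0.31 in hindbrain (SD, n = 8 each), a shift of -2.25 (exact p 0.000155, adjusted p 0.000544) with no overlap. In Wnt tumours Jam3 rose while F11r, Jam2 and Esam fell. The shifts of these 3 genes against Jam3 there restate those changes and are no further support for them. Jam2 minus Jam3 shifted by -2.15 in Wnt tumours against hindbrain (exact permutation test, adjusted p 0.000544) and by -0.76 in Shh tumours against hindbrain (exact permutation test, adjusted p 0.00299). Jam2 thus fell relative to its binding partner Jam3 in both tumour groups, and Wnt minus Shh was -1.39 (exact permutation test, adjusted p 0.00131).

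F11r and Jam2 were not separated in Wnt tumours, where their difference shifted by -0.10 against hindbrain (exact permutation test, adjusted p 0.575). They separated in Shh tumours, where F11r minus Jam2 was higher by 0.60 than in hindbrain (exact permutation test, adjusted p 0.000544), with no overlap between the groups. Jam2 minus Esam fell by 0.78 in Shh tumours against hindbrain (exact permutation test, adjusted p 0.000544), again with no overlap. F11r minus Esam also passed in Shh minus hindbrain (-0.18, exact permutation test, adjusted p 0.0478) but failed in 12 of the 24 repeats without a single array. Jam3 minus Esam was higher by 1.89 in Wnt tumours than in hindbrain (exact permutation test, adjusted p 0.000816).

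Of the kinase genes, Prkcz minus Prkci was lower in Wnt tumours (-3.03 ± 0.28, SD, n = 8) and in Shh tumours (-2.83 ± 0.16, SD, n = 8) than in hindbrain (-2.48 ± 0.12, SD, n = 8). The shifts were -0.54 in Wnt tumours (exact permutation test, adjusted p 0.000544) and -0.35 in Shh tumours (exact permutation test, adjusted p 0.00131). In Wnt tumours Prkci alone was called of the pair, and in Shh tumours neither gene was. Wnt minus Shh was -0.20 (exact permutation test, adjusted p 0.132).

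**Figure D3:**
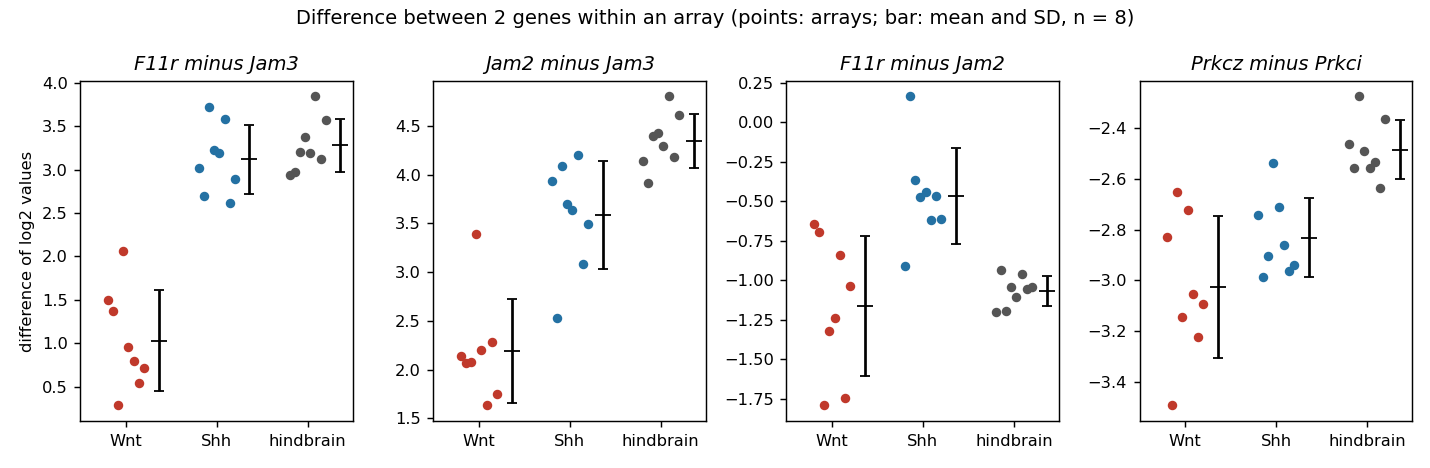
Log2 difference between 4 of the pairs of genes within each array (vertical axes) in the Wnt, Shh and hindbrain groups, with 1 point per array and a bar for the group mean ± SD (n = 8). F11r minus Jam3 is lower in all Wnt arrays than in any hindbrain array, and F11r minus Jam2 is higher in all Shh arrays than in any hindbrain array.

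The sorted cells expressed all 15 endothelial markers other than Esam above the level of 95% of the 92 control probe sets (5.24), but their mean was lower in Wnt tumours. Per array it ran from 9.79 to 10.96 in Wnt tumours, from 11.14 to 11.60 in Shh tumours and from 11.30 to 11.61 in hindbrain. With Esam, 15 of the 16 markers fell in Wnt minus hindbrain, where 22% of all genes were called lower. In RNA of sorted cells, a smaller share of endothelial cells and less RNA per cell cannot be told apart. Over the 8 Wnt arrays, Esam followed the marker mean with Pearson's r = 0.988 (exact permutation p 4.96e-05, adjusted p 0.000397 over 8 genes) and Spearman's rho = 0.976 (exact permutation p 0.000397, adjusted p 0.00317). Without arrays 1 and 8, the farthest from the median, r was 0.954 for Esam (n = 6, no test). The other 7 genes had adjusted p from 0.462 to 0.678 by the exact permutation test over the 8 arrays. For F11r, r was 0.23 with all arrays and 0.74 without them, and for Jam2 it was 0.61 with all arrays and 0.20 without them.

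With the marker mean as a covariate, F11r fell by 0.99 ± 0.20 (SE, adjusted p 0.000827) and Jam2 fell by 0.71 ± 0.19 (SE, adjusted p 0.00931) in Wnt minus hindbrain, while Esam was 0.20 ± 0.091 (SE, adjusted p 0.143) and Jam3 0.74 ± 0.29 (SE, adjusted p 0.0844). Prkci remained higher by 0.51 ± 0.16 (SE, adjusted p 0.0283), and Pard3 (0.52) and Pard6g (0.61) also passed. The covariate itself does not overlap between Wnt tumours and hindbrain, nor between Wnt and Shh tumours. Expressed relative to the marker mean of each array, the median gene shifted by 0.98, F11r was -0.29 (adjusted p 0.0764), Jam2 -0.19 (adjusted p 0.197) and Esam 0.069 (adjusted p 0.523), and Jam3 (1.96) and Prkci (1.69) were further above that median. In Shh minus hindbrain, Jam2 was called under both settings, at -0.68 with the covariate and -0.63 relative to the markers, and Pard6g likewise at 0.94 and 1.01. Pard3 was not called relative to the markers (-0.16, adjusted p 0.548), and Esam passed with the covariate (0.17, adjusted p 0.00984). In Wnt minus Shh, F11r (-0.89), Pard3 (0.76) and Prkci (0.50) were called with the covariate, and Jam2, Jam3, Esam, Pard6g and Prkcz were not (adjusted p 0.0707 to 0.929).

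**Figure D4:**
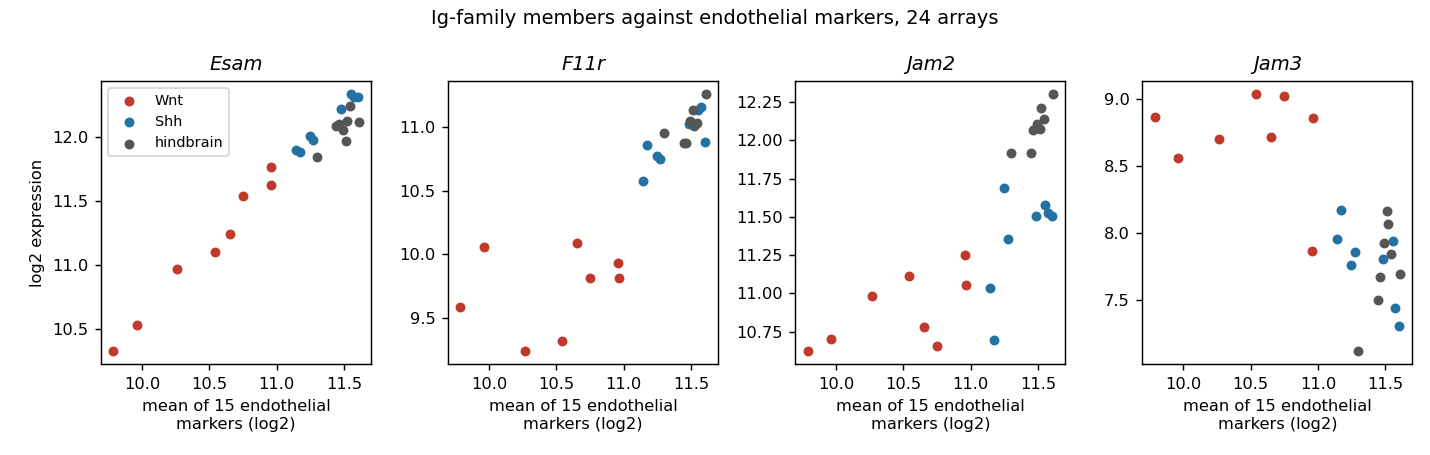
Log2 signal of Esam, F11r, Jam2 and Jam3 (vertical axes) against the mean log2 signal of 15 endothelial markers without Esam (horizontal axes), with 1 point per array of the Wnt, Shh and hindbrain groups. In the Wnt arrays Esam lies along a line with the marker mean, with r = 0.988, whereas r over the 8 Wnt arrays is 0.23 for F11r, 0.61 for Jam2 and -0.22 for Jam3.

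Markers of other cells also differed between the groups, and their part in the results was not tested. Their counts against hindbrain stand beside 23.2% of all genes called higher and 22% lower in Wnt tumours, and 18.9% each way in Shh tumours. Of 10 fibroblast markers, 7 rose and 1 fell in each tumour group, with means per array of 8.31 to 9.64 in Wnt tumours, 8.55 to 9.66 in Shh tumours and 7.51 to 8.10 in hindbrain. All 13 measured microglia and macrophage markers fell in Wnt tumours and 11 of 13 in Shh tumours, and their mean ran from 7.47 to 9.31 in Wnt tumours, from 7.81 to 10.18 in Shh tumours and from 10.38 to 11.39 in hindbrain. Platelet markers, which bear on Esam, were lower for 4 of 6 in each tumour group, at 6.44 to 7.29 in Wnt tumours, 6.83 to 7.46 in Shh tumours and 7.80 to 8.42 in hindbrain. Of 12 pericyte markers, 7 fell in Wnt tumours and 2 in Shh tumours, while 1 rose in Shh tumours, with means of 8.26 to 9.95 in Wnt tumours, 9.89 to 10.39 in Shh tumours and 9.61 to 10.70 in hindbrain. Of 10 granule neuron precursor markers, 3 rose and 1 fell in Wnt tumours and 9 rose in Shh tumours, with means of 6.84 to 7.47 in Wnt tumours, 7.51 to 9.02 in Shh tumours and 6.64 to 6.88 in hindbrain. Of the remaining lists, 2 of 6 smooth muscle markers fell in Wnt tumours, and 4 fell and 1 rose in Shh tumours. Of 9 astrocyte markers, 3 rose and 1 fell in Wnt tumours and 6 rose in Shh tumours. Of 10 oligodendrocyte markers, 7 fell in Wnt tumours, and 6 fell and 2 rose in Shh tumours. Of 7 choroid plexus and ependyma markers, 4 fell and 2 rose in Wnt tumours and 4 fell in Shh tumours, and the risers in Wnt tumours, Otx2 (4.93) and Clic6 (3.68), had the largest changes of that list. Neuron markers were split, with 4 of 10 higher and 4 lower in Wnt tumours and 3 higher and 4 lower in Shh tumours. None of the fibroblast, microglia, platelet or pericyte markers was at the control probe level in any group mean.

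The genes whose signal across the 24 arrays was most like that of each member were picked by Pearson correlation among 14844 genes above the control level, as a description in which the arrays fall into 3 groups. For Esam these were Robo4 (r = 0.976), Egfl7 (0.976) and Pecam1 (0.975), which are themselves endothelial markers of the mean above. For F11r they were Esyt1 (0.964), Slco2b1 (0.950) and Samd9l (0.946). Slco2b1, an organic anion transporter of brain vessels, averaged 9.06 in Wnt tumours, 10.94 in Shh tumours and 10.95 in hindbrain, the order also seen for F11r. For Jam2 they were Vamp4 (0.971), Enpp4 (0.970) and Utrn (0.965), all lowest in Wnt tumours and highest in hindbrain. Utrn, the dystrophin relative utrophin, averaged 10.08 in Wnt tumours, 10.77 in Shh tumours and 11.68 in hindbrain.

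The genes most like Prkci were Dsc3 (0.963), a desmosomal cadherin, Pcdh20 (0.961), a protocadherin, and Rorb (0.959), a nuclear receptor. Dsc3 averaged 8.90 in Wnt tumours against 4.84 in Shh tumours and 4.79 in hindbrain, both under the control level of 5.24. For Jam3 the genes were Uxs1 (0.924), Gdf11 (0.922) and Tle5 (0.916), of which Gdf11, a growth factor of the TGF-beta family, averaged 9.54 in Wnt tumours, 7.97 in Shh tumours and 8.16 in hindbrain. For Pard6g they were Mta2 (0.906), Susd2 (0.901) and Lamc1 (0.890), and Lamc1, a laminin chain of basement membranes, averaged 11.07 in Wnt tumours, 11.70 in Shh tumours and 10.42 in hindbrain. For Pard3 they were Tanc1 (0.905), Glis2 (0.891) and Rnf152 (0.887), and for Prkcz Unc13c (0.878), Abhd2 (0.841) and Nsmaf (0.840).

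Among 11 relatives and ligands of the junctional adhesion molecules, 1 rose, 4 fell and 6 were not called in Wnt minus hindbrain, with a median of 0.05 against -0.02 over all genes. Cxadr, an adhesion protein of the same family, rose by 2.25 ± 0.19 (SE) in Wnt tumours, to a mean of 8.67 ± 0.57 in Wnt tumours against 6.42 ± 0.23 in hindbrain (SD, n = 8 each) with no overlap. Itgam, the alpha chain of the integrin that binds Jam3, fell by 2.73 and its beta chain Itgb2 by 2.17 in Wnt tumours. Both are leukocyte genes, Itgam is also one of the microglia and macrophage markers above, and Itgam also fell by 2.36 in Shh tumours. In Shh minus hindbrain 6 genes of the list rose, 3 fell and 2 were not called, with a median of 0.46. Itga4, the integrin chain that binds Jam2, rose by 2.23 ± 0.20 (SE) in Shh tumours, to 10.15 ± 0.26 in Shh tumours against 7.91 ± 0.16 in hindbrain (SD, n = 8 each). Clmp rose by 1.23 in Shh tumours, and Igsf5, the relative also known as JAM-4, fell by 2.60 ± 0.17 (SE) in Wnt against Shh tumours.

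Of 21 other genes of the polarity complexes, 3 rose and 5 fell in Wnt minus hindbrain, 1 rose and 4 fell in Shh minus hindbrain, and 6 were higher and 4 lower in Wnt minus Shh, with medians of -0.08, -0.11 and 0.01. Lin7a, a small scaffold of the Crumbs complex, rose by 1.15 ± 0.20 (SE) in Wnt tumours with no overlap, and Lin7c rose by 0.37. Tiam1, an activator of Rac that binds Pard3, fell by 0.47, and Llgl2, a substrate of atypical protein kinase C, fell by 0.45 in Wnt tumours. In Shh tumours Patj, a Crumbs complex scaffold, fell by 0.63 and Crb2 by 0.42, and Scrib rose by 0.19. The Crb2 and Scrib calls (limma, adjusted p 0.0348 and 0.0378) were each lost in 9 of the 24 repeats without a single array. The Scrib call was also lost in 5 of 13 alternatives, and Crb2 averaged 5.59 in Shh tumours beside the control level of 5.24. The Pard6g paralogues Pard6a (0.17, adjusted p 0.0970) and Pard6b (-0.10, adjusted p 0.463) were not called in Wnt minus hindbrain, nor in Shh minus hindbrain, where they were 0.16 (adjusted p 0.136) and -0.13 (adjusted p 0.336).

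Of 10 measured tight junction scaffold genes, 4 rose and 3 fell in Wnt minus hindbrain and 3 rose and 0 fell in Shh minus hindbrain. Cgnl1, a paralogue of cingulin, fell by 1.40 ± 0.17 (SE) in Wnt tumours, with means of 8.18 ± 0.39 in Wnt tumours and 9.57 ± 0.21 in hindbrain (SD, n = 8 each), and Afdn, an adaptor bound by F11r, fell by 0.58. Magi1 rose by 1.31 in Wnt and 0.69 in Shh tumours, and Cask by 0.79 in Wnt tumours. Of 10 measured genes of Rap1 and cerebral cavernous malformation signalling, which acts downstream of junctional adhesion, 7 fell and 0 rose in Wnt tumours, and 5 fell and 1 rose in Shh tumours. Rapgef2, a Rap1 activator that is recruited by F11r, fell by 1.37 ± 0.11 (SE) in Wnt tumours and by 0.77 ± 0.11 (SE) in Shh tumours, with means of 9.39 ± 0.27 in Wnt tumours, 9.99 ± 0.24 in Shh tumours and 10.76 ± 0.10 in hindbrain (SD, n = 8 each). Rapgef6 fell by 0.81 in Wnt tumours and rose by 0.33 in Shh tumours. The Shh rise (limma, adjusted p 0.0467) was lost in 12 of the 24 repeats without a single array.

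Of 10 genes of the endothelial adherens junction, 3 rose and 5 fell in Wnt minus hindbrain, and 3 rose and 1 fell in Shh minus hindbrain. Ptprb, the phosphatase of VE-cadherin, fell by 1.54 and Pecam1 by 0.87 in Wnt tumours, both also endothelial markers. Nectin3 rose by 2.05 ± 0.14 (SE) in Wnt tumours and by 1.04 ± 0.14 (SE) in Shh tumours, and Nectin2, like Nectin3 an adhesion protein bound by afadin, by 1.47 and 1.08. Jup fell by 0.38 in Shh tumours. The lists were described by counts and medians alone, beside the 23.2% of all genes called higher and 22% called lower in Wnt minus hindbrain and 18.9% each way in Shh minus hindbrain.

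**Figure D5:**
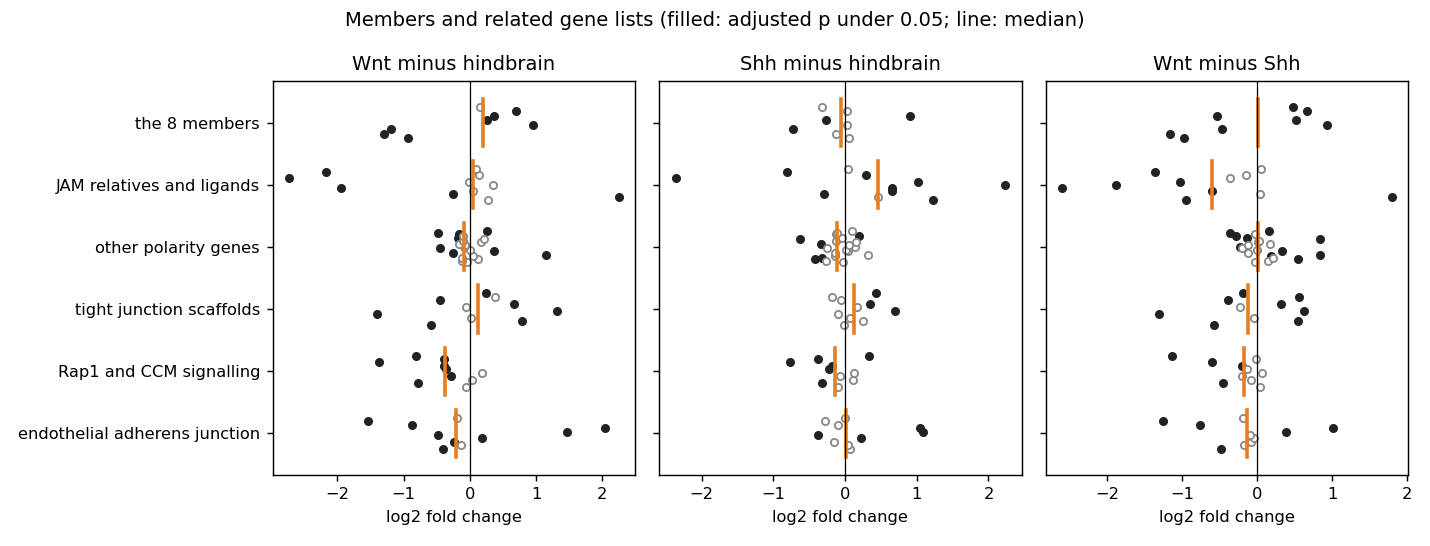
Log2 fold change of the 8 genes and of every measured gene in the 5 related lists (horizontal axis), 1 point per gene, filled where called, in the comparisons of Wnt with hindbrain, Shh with hindbrain and Wnt with Shh, with a bar at the median of each list. The Rap1 and cavernous malformation genes lie mostly below 0 in Wnt minus hindbrain, while the other lists spread to both sides.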

How the data were processed

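Gene expression was measured on Affymetrix arrays with RNA of 24 sorted samples, 8 per group. The deposited table holds 1 value per array for each probe set, on a log2 scale to judge by the values. Partek 6.6 is named, with no role, in the submitters' processing notes. How the authors corrected, normalized and summarised the signals is not given in the sources used here. Medians over all probe sets ran from 5.97 to 6.18, and precision is limited by the 8 arrays of each group.

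Of 41345 probe sets, 23521 have 1 gene symbol in the platform annotation, 1814 several and 16010 none (the 92 ERCC controls included), and 23328 of the first matched the reference gene table. Keeping the probe set with the highest mean left 22180 genes. The 3 groups were fitted together in limma 3.58.1 (R 4.3.3, lmFit and eBayes, two-sided), with Benjamini-Hochberg adjustment over all genes and calls under 0.05. Exact permutation tests were run in Python 3.11.15, with SciPy 1.17.1 for ranks and the adjustment of p.

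Genes, lists and tests were chosen with earlier results of these data known. Named genes were the 8 members, the 2 largest called rises and falls of each related list per comparison, and the 3 genes most correlated with each member. Pard6a, Pard6b, Otx2 and Clic6 were named beyond this rule after their values were seen, and not every gene the rule allows is named in the text. On data simulated for Wnt minus hindbrain over 22180 genes, 38 of 50 genes shifted by 0.5 and 48 of 50 shifted by 1 were recovered, with 8 false calls. The simulated noise was independent between genes and equal in spread between groups, and few genes were shifted. These figures may therefore not carry over to the measured arrays. Replicate numbers were not treated as pairs. Correlations between same-numbered arrays, after centring each group, ran from -0.146 to 0.282. Differently numbered arrays were not compared, so these values cannot tell whether the numbers pair the arrays.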

Additional observations from a re-analysis of the deposited data

Results flagged for a closer look

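Jam3 in Wnt array 4 had a log2 signal of 7.86, and the nearest of the other 7 Wnt arrays had 8.56, a gap that is 0.594 of the range of the group, above the 0.526 that Dixon's test allows for 8 samples. It was the only one of 24 combinations of gene and group with such a gap, and chance gives about 1 in 20. Without this array the Jam3 rise in Wnt minus hindbrain was 1.08. The same array had the highest Jam2 (11.25), Esam (11.77) and Pard6g (8.13) signals of the Wnt group, and its endothelial marker mean was 10.96 in a group range of 9.79 to 10.96.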

How the results depend on the processing

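Over the alternatives and the repeats without 1 array, the count of called members was 5 to 7 for Wnt minus hindbrain and 2 to 4 for Shh minus hindbrain. For Wnt minus Shh it was 8 in the repeats without 1 array but 3 with the endothelial marker mean as a covariate. That covariate also lowered the calls over all genes, from 7946 to 3506 in Wnt minus Shh. Over the alternatives, calls over all genes ran from 4253 to 20616 in Wnt minus hindbrain and from 3929 to 9431 in Shh minus hindbrain. The pair tests called 13 to 16 of 21. With the replicate number as a block, the members called were 7, 3 and 8 for Wnt against hindbrain, Shh against hindbrain and Wnt against Shh, as without it, and the block changed no call of a member. The share of higher among called genes was 51.3% in Wnt minus hindbrain, 34.9% with arrays set to the same gene median (which moved the median gene to -0.14) and 59.9% with arrays set to the same median of all probe sets, an alternative chosen after seeing the data. It was 50.1% against 33.4% with the same gene median in Shh minus hindbrain, and 50.3% against 62.2% with the same median of all probe sets in Wnt minus Shh. Relative to the markers it was 97.0% in Wnt minus hindbrain, 66.4% in Shh minus hindbrain and 97.9% in Wnt minus Shh.

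The remaining values concern the endothelial markers and the list counts, and the alternatives for related genes and lists were chosen after seeing the data. With the marker mean as a covariate, Esam was 0.20 in Wnt minus hindbrain and 0.030 in Wnt minus Shh, Llgl2 was 0.28, Afdn 0.016 and Pecam1 0.16 in Wnt minus hindbrain, and Pecam1 was 0.16 in Wnt minus Shh. Relative to the marker mean, Wnt minus hindbrain gave 0.069 for Esam, 0.53 for Tiam1, 0.55 for Llgl2, 0.42 for Afdn, 0.19 for Rapgef6 and 0.13 for Pecam1. Relative to it, Wnt minus Shh gave 0.43 for Jam2, 0.35 for Pard6g, 0.53 for Tiam1, 0.61 for Scrib, 0.32 for Afdn, 0.30 for Rapgef2 and 0.13 for Pecam1. All of these values have the opposite sign in the main fit. The marker mean, which itself fell in Wnt tumours, was subtracted from each array or fitted as a covariate. Subtraction shifts every gene of a comparison by the same amount. It moved the median gene to 0.98 in Wnt minus hindbrain and 0.89 in Wnt minus Shh. The sign turns relative to the markers follow from that shift. There, Esam, Rapgef6 and Pecam1 were not called in limma (adjusted p 0.192 to 0.523) and the others listed were (adjusted p 9.6e-05 to 0.0414). None of the values listed with the covariate was called in limma (adjusted p 0.143 to 0.968), and why those signs turned was not tested.

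With the covariate, called genes in Wnt minus hindbrain numbered 2 for the other polarity genes, 2 for Rap1 signalling and 5 for the adherens junction. In Wnt minus Shh they numbered 6 for polarity, 3 for scaffolds, 2 for Rap1 and 0 for the adherens junction in limma. Of all 22180 genes, 4253 were called with the covariate in Wnt minus hindbrain and 3506 in Wnt minus Shh. Relative to the markers, the counts were 11 for the relatives and ligands and 21 for polarity in Wnt minus hindbrain, 1 for polarity, 2 for Rap1 and 2 for the adherens junction in Shh minus hindbrain, and 21 for polarity, 9 for Rap1 and 9 for the adherens junction in Wnt minus Shh. In that setting 20616, 3929 and 20310 of all 22180 genes were called in these comparisons in turn, so these counts are not particular to the lists. With the same gene median, polarity had 13 calls in Wnt minus hindbrain and 8 in Shh minus hindbrain, beside 11404 and 9431 over all genes. Quantile normalization left 3 Rap1 calls in Shh minus hindbrain, beside 8473 over all genes. Without single arrays, polarity calls in Shh minus hindbrain ran from 3 to 6, with 3 without hindbrain array 3 or Shh array 2, 4 or 6.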

Other observations

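Single arrays held the extreme value of several genes. Hindbrain array 6 was the lowest of its group for 6 of the 8 members and also for the endothelial marker mean (11.30), with the highest microglia and macrophage marker mean (11.39) of the hindbrain arrays. Shh array 2 was the lowest of its group for 6 members and the highest for Jam3, with an endothelial marker mean of 11.17 and the highest microglia and macrophage marker mean (10.18) of its group. In Wnt tumours, array 3 was the highest for Jam3, Pard3, Prkci and Prkcz and the lowest for Pard6g, and its fibroblast marker mean of 8.31 was the lowest of that group.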
